A study of Mus musculus with 69 samples.

Results

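The comparison of ZT0, the hour of lights on, with ZT12, the hour of lights off, was made in the kidneys of young mice. It used 14 of the 69 RNASeq libraries of the series, chosen by their labels alone: 7 young mice at ZT0 and 7 at ZT12, with repeat libraries of the same mice left out. All 14 were female NZB/W F1 mice, a hybrid strain that goes on to develop lupus nephritis, aged 12 weeks and kept under 12 h of light and 12 h of dark. The labels name no transgene and no treatment. Whole kidneys were perfused before RNA was extracted, so every segment of the nephron and the vessels share a library. The mice were sequenced in 2 sets, told apart by the prefix of the library name: 3 mice of each time point in the CR set and 4 of each in the ZT set. The question put to these libraries was which genes, and which functions of the kidney, differ between the start of the resting phase and the start of the active phase of a nocturnal animal.

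The molecular clock is a feedback loop of transcription. The activators Arntl (Bmal1) and Clock, or its relative Npas2, bind E-box letters in DNA and switch on the Per and Cry genes, whose proteins then block the activators. A second loop runs through the nuclear receptors Nr1d1 and Nr1d2, which repress Arntl and Npas2, against the Ror proteins, which activate them. The PAR bZIP factors Dbp, Tef and Hlf, and their competitor Nfil3, pass the rhythm to other genes through D-box letters. In the kidney this clock is known to time salt and water handling, transport by the tubule and metabolism.

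The letters of these elements were looked for in the 250 bases before each start site of the RefSeq promoter table (build GRCm38.p6), on either strand: CACGTG for the E-box, which reads the same on both strands, TTATGTAA or TTACGTAA for the D-box, and TAGGTCA for the ROR element. Of 29 clock genes tested, 23 had an entry and 8 held a match: 5 an E-box, 2 a D-box and 1 a ROR element. All 8 are shown, so that their letters can be set beside their values: 7 of them were called different between the time points and Timeless was not, while Npas2, Arntl and Dbp held no match in these windows. Each stretch runs 5′ to 3′ on the gene's strand, with the matched letters in capitals. A match is a description of the letters, and no binding was measured.
Ciart (chr3:95882247-95882364, 3 E-boxes): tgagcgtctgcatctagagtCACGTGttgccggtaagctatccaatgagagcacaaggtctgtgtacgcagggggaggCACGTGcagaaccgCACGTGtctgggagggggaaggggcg
Per1 (chr11:69098763-69098808, E-box): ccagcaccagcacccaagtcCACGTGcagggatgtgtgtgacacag
Cry1 (chr10:85185089-85185134, E-box): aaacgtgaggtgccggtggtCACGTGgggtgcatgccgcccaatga
Bhlhe41 (chr6:145865548-145865593, E-box): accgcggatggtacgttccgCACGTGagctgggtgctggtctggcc
Tef, upstream start (chr15:81802526-81802571, E-box): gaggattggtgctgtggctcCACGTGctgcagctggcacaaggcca
Tef, downstream start (chr15:81811256-81811301, E-box): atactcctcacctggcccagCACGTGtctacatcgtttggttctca
Per3 (chr4:151044796-151044890, 2 D-boxes): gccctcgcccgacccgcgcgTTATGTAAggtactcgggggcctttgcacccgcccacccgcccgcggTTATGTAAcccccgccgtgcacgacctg
Timeless (chr10:128237889-128237936, D-box): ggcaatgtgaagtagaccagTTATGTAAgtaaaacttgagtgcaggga
Nfil3 (chr13:52981040-52981071, ROR element, reverse strand): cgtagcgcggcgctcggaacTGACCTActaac
Over all 32851 windows in the table, 6.02% held the E-box, 0.931% the D-box and 2.23% the ROR element. Counted by gene, the D-box letters were in 22 of 1096 genes called lower at ZT0 (2.01%), in 3 of 880 called higher (0.341%) and in 76 of 9931 not called (0.765%). The E-box letters were in 119 of the 1096 lower genes (10.9%), 105 of the 880 higher genes (11.9%) and 887 of the 9931 others (8.93%).

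Each library held between 25257530 and 35744843 counts and stands for 1 mouse by the study's methods. The labels give no animal numbers, so p-values measure the spread between these libraries. Transcripts of all nephron segments looked for were present, with the summed proximal tubule markers between 10969 and 15747 CPM (counts scaled to the library's total). Thick ascending limb markers differed by set, with sums of 4026 to 6824 CPM in the ZT set and 7904 to 9761 CPM in the CR set. Adrenal transcripts stood out in 4 of the 8 ZT set libraries. The 7 adrenal cortex markers, among them Star and Cyp11b1, summed to 411 CPM in replicate 1 of ZT0 and to 1725, 211 and 1933 CPM in replicates 2, 3 and 4 of ZT12, against at most 10.3 CPM in the other 10 libraries. Adrenal medulla markers (Th, Dbh, Pnmt, Chga and Chgb) followed, at up to 7.93 CPM at ZT0 and 352 CPM at ZT12, and all 5 were called lower at ZT0. Adipocyte markers ranged from 62.5 to 202 CPM at ZT0 and from 76.3 to 506 CPM at ZT12, and 2 of 7 were called lower at ZT0, Cidec and Ucp1. The main axis of variation between the 14 libraries (first principal component of log2 CPM) held 38.9% of the variance. It set replicates 2, 3 and 4 of ZT12 apart, at -59.1, -44.9 and -53.6, from all other libraries, at -2.56 to 32.6. In a whole organ, fewer cells of a type and less RNA per cell cannot be told apart. Counts of calls are therefore also given, for all genes and for most lists, without these 4 libraries, which left 6 mice at ZT0 and 4 at ZT12. Of the ZT set at ZT12, replicate 1 alone remained. Fewer mice can lose calls by themselves, so a call lost there does not show dependence on adrenal transcripts. The 3 CR set mice of each time point are all among the libraries without adrenal transcripts.

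**Figure D1:**
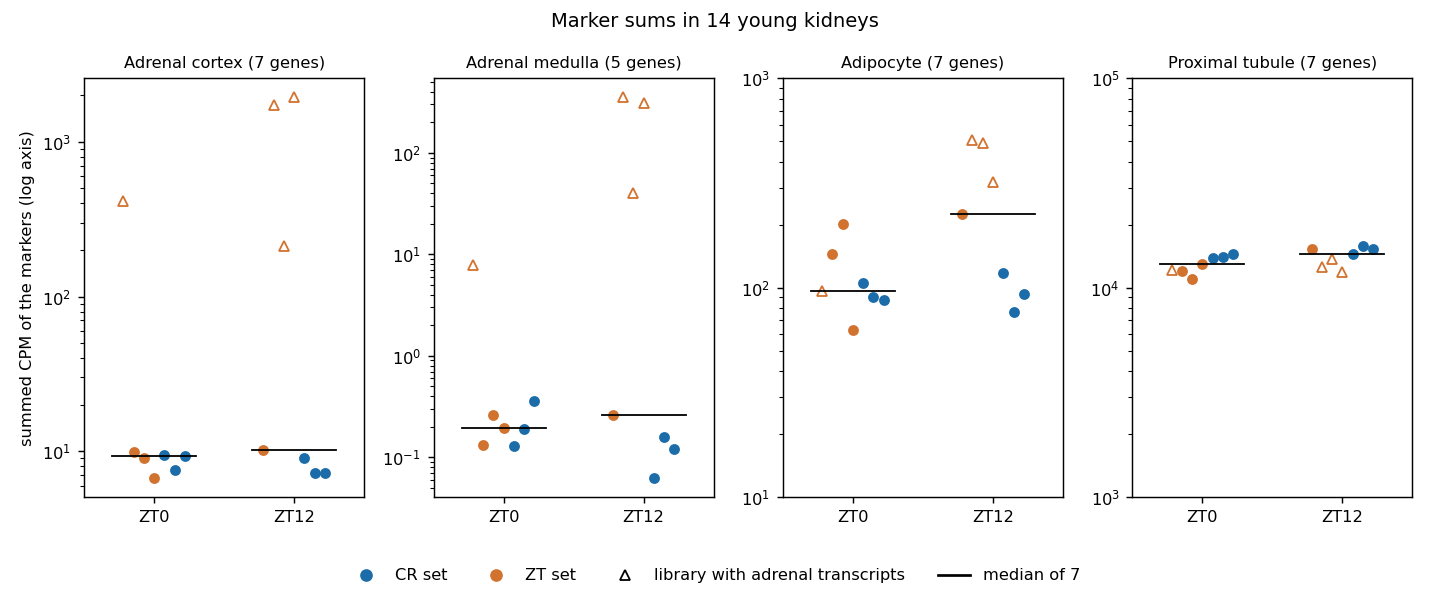
Summed CPM of the markers of 4 cell types in each of the 14 libraries (log axis, a panel each), at ZT0 and ZT12, with the CR set in blue, the ZT set in orange, open triangles for libraries with adrenal transcripts and a line at the median of 7. Adrenal cortex markers exceed 100 CPM in 1 library of ZT0 and 3 of ZT12, while proximal tubule markers stay between 10969 and 15747 CPM.

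Of 15504 genes with at least 100 counts over the 14 libraries, 2579 (16.6%) were called different between the time points, meaning an adjusted p of at most 0.05 in edgeR's quasi-likelihood test with the set as a covariate. At ZT0, 1176 genes (7.59%) were higher and 1403 (9.05%) lower. Most differences were small: the median log2 difference (ZT0 minus ZT12, the sign used throughout) was 0.32 among the higher genes and -0.37 among the lower ones, and 71 higher and 145 lower genes passed 2-fold. The CPM of the groups did not overlap for 670 genes (4.32%). Without the 4 libraries with adrenal transcripts, 571 genes were higher (3.8%) and 636 lower (4.24%), 8.04% of 15010 in all, and 1090 of the 2579 genes were still called. Of the 2537 that were tested there, 2536 kept their direction. The CR set alone, with 3 mice each, gave 845 higher (5.85%) and 954 lower genes (6.61%), 12.5% of 14439 in all. The ZT set alone, with 4 mice each, gave 846 higher (5.72%) and 990 lower genes (6.7%).

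**Figure D2:**
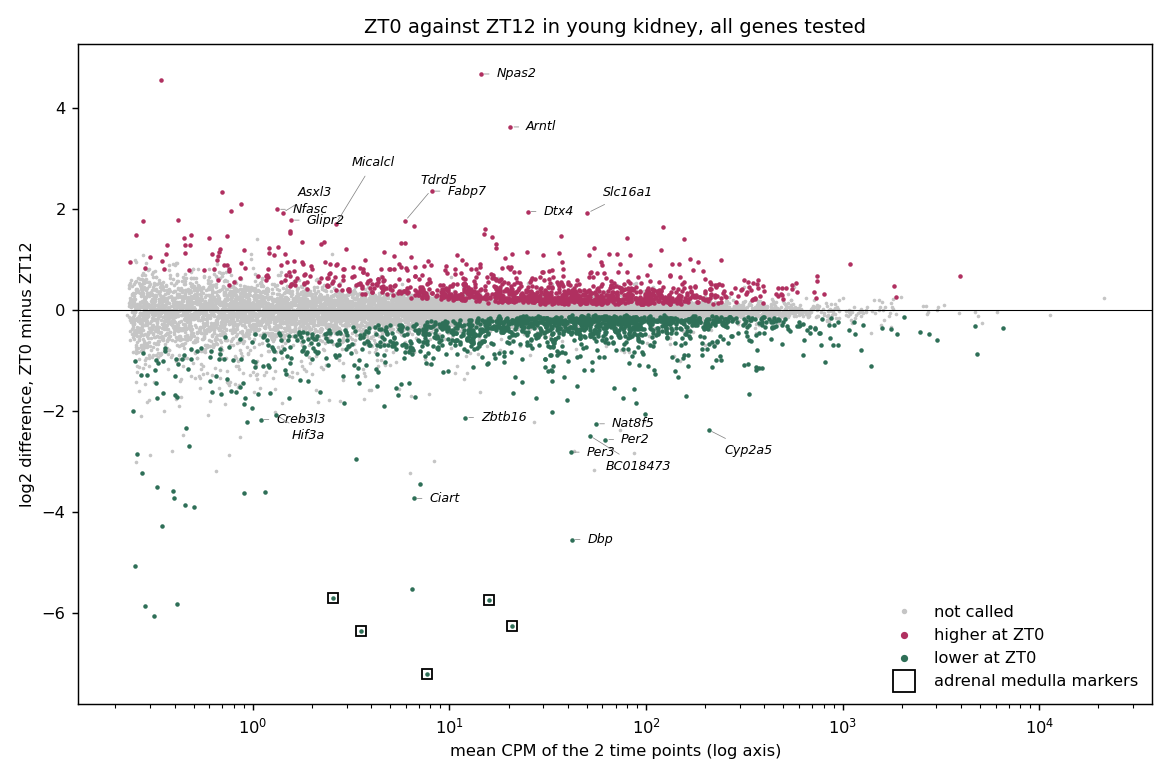
Log2 difference between ZT0 and ZT12 against the mean CPM (log axis) of each of the 15504 genes tested, with called genes in red (higher at ZT0) and green (lower at ZT0), squares on the 5 adrenal medulla markers and labels on the 10 largest differences in each direction that did not overlap between groups and had a mean of at least 1 CPM. Npas2 and Arntl lie at the top, while Dbp and Ciart are the lowest labelled genes.

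Of the 29 clock genes tested, 21 were called (72.4%, against 16.6% of all genes), 4 higher and 17 lower at ZT0, and 17 had no overlap between the groups (against 4.32% of all genes). Without the 4 libraries with adrenal transcripts 17 were called.

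Among the 6 activators, 3 were higher at ZT0, Npas2, Arntl and Clock, and 2 were lower, Rora among them. Npas2 (GRCm38 chr1:39193702-39363240) lay between 21.0 and 35.5 CPM at ZT0 (median 25.9) and between 0.848 and 1.61 CPM at ZT12 (median 1.03). It had the largest rise of all genes with a mean of at least 1 CPM and no overlap, 25.4-fold (log2 difference 4.66, SE 0.13, adjusted p = 7.9e-12). Arntl (chr7:113178471-113314126), the obligate partner of Clock and Npas2, ran from 28.9 to 48.1 CPM at ZT0 (median 35.6) and from 2.04 to 4.56 CPM at ZT12 (median 2.74), a 12.3-fold difference (log2 3.62, SE 0.14, adjusted p = 1.2e-10). Clock itself was 62.0 to 98.6 CPM at ZT0 (median 74.3) and 35.8 to 59.1 CPM at ZT12 (median 45.7), a 1.56-fold difference with no overlap. Rora, a nuclear receptor that activates Arntl, fell by 0.32 on the log2 scale with overlapping groups, and lost its call without the adrenal-bearing libraries (adjusted p = 0.0615). Arntl2, the paralog of Arntl, lay between 0.811 and 1.86 CPM over all mice and was not called (log2 0.18, SE 0.18).

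All 11 repressors were called, 10 of them lower at ZT0. The period genes, whose proteins inhibit Clock and Arntl, were all lower without overlap. Per3 was 7.51 to 12.3 CPM at ZT0 (median 10.9) and 65.5 to 85.6 CPM at ZT12 (median 69.7), 7.02-fold lower (log2 -2.81, SE 0.10). Per2 was 12.0 to 31.0 CPM at ZT0 (median 14.6) and 97.9 to 118 CPM at ZT12 (median 101), 5.91-fold lower (log2 -2.56, SE 0.16). Per1 was 27.7 to 58.6 CPM at ZT0 (median 37.9) and 113 to 161 CPM at ZT12 (median 139), 3.56-fold lower (log2 -1.83, SE 0.14). Ciart, which blocks the Clock and Arntl complex and carries 3 E-boxes in the window shown, was 0.786 to 1.15 CPM at ZT0 (median 0.858) and 8.69 to 19.6 CPM at ZT12 (median 10.7), 13.2-fold lower (log2 -3.73, SE 0.19, adjusted p = 4.1e-09).

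The cryptochromes, partners of the period proteins, differed less: Cry2 was 2.16-fold lower at ZT0 without overlap (18.1 to 26.6 CPM, median 20.8, against 39.7 to 53.7 CPM, median 48.6) and Cry1 2.04-fold lower with overlap (log2 -1.03, SE 0.13). The paired receptors of the second loop parted. Nr1d2 was 34.2 to 46.9 CPM at ZT0 (median 38.6) and 133 to 181 CPM at ZT12 (median 154), 4.16-fold lower (log2 -2.06, SE 0.07, adjusted p = 2.6e-11). Nr1d1 overlapped, with 10.4 to 29.1 CPM at ZT0 (median 17.7) and 22.3 to 42.0 CPM at ZT12 (median 29.3; log2 -0.64, SE 0.21, adjusted p = 0.0478). Its call was lost in 10 of the 14 fits that each left out 1 mouse and without the adrenal-bearing libraries (log2 -0.42, adjusted p = 0.379), and the log2 difference was -0.08 in the CR set and -1.05 in the ZT set. Of the E-box binding repressors of the DEC family, Bhlhe41 was 2.74-fold lower (2.47 to 3.30 against 7.20 to 9.40 CPM), whereas Bhlhe40 was 1.42-fold lower with overlap and not called without the adrenal-bearing libraries (adjusted p = 0.214). Nfil3, the D-box repressor, was the single repressor that was higher at ZT0, 36.3 to 46.4 CPM (median 39.7) against 17.2 to 23.4 CPM (median 18.5), a 2.11-fold difference (log2 1.08, SE 0.06, adjusted p = 2.1e-08).

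The D-box activators were all lower at ZT0, and no groups overlapped. Dbp (chr7:45705100-45710203) was 2.22 to 5.35 CPM at ZT0 (median 3.18) and 61.2 to 124 CPM at ZT12 (median 69.6), 23.3-fold lower, the largest fall by the same criteria (log2 -4.54, SE 0.18, adjusted p = 1.9e-10). Tef, at 122 to 201 CPM (median 162) and 487 to 542 CPM (median 508), was 3.15-fold lower (log2 -1.66, SE 0.08). Hlf, at 102 to 146 CPM (median 118) and 182 to 212 CPM (median 190), was 1.58-fold lower (log2 -0.66, SE 0.07). At ZT0 all 3 activators were thus low while their competitor Nfil3 was high. Of 9 enzymes that modify clock proteins, 2 were called lower at ZT0. Usp2, a deubiquitinase, was 3.25-fold lower (55.5 to 98.2 CPM, median 73.0, against 209 to 270 CPM, median 235), and Csnk1e, a kinase of period proteins, was 1.29-fold lower with no overlap but was not called without the adrenal-bearing libraries (adjusted p = 0.124). The remaining 7 members, Csnk1d, Gsk3b, Btrc, Fbxl21, Fbxw11 and Timeless among them, had log2 differences between -0.27 and 0.08 and were not called.

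**Figure D3:**
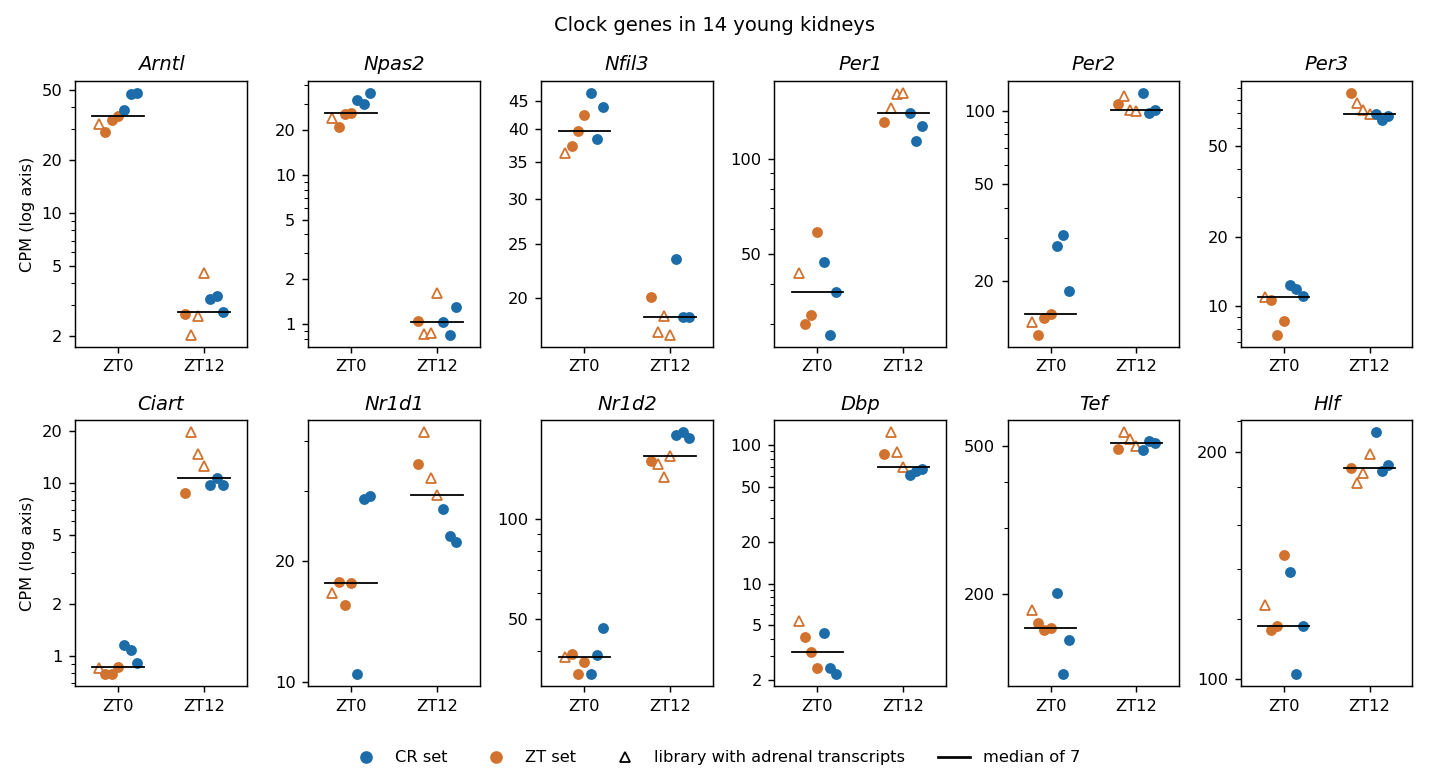
CPM of 12 clock genes (log axis, scaled per panel) in each of the 14 libraries at ZT0 and ZT12, with the CR set in blue, the ZT set in orange, open triangles for libraries with adrenal transcripts and a line at the median of 7. The groups do not overlap for 11 of these genes. Nr1d1 overlaps, and 2 CR set mice at ZT0 lie among the ZT12 values.

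Outside the clock lists, the largest rises at ZT0 were led by Fabp7, a fatty acid binding protein of the brain type, at 10.6 to 16.2 CPM (median 12.8) against 2.04 to 3.10 CPM (median 2.59), a 5.09-fold difference (log2 2.35, SE 0.11, adjusted p = 9.7e-10). Slc16a1, the monocarboxylate transporter MCT1 for lactate and ketone bodies, was 64.3 to 108 CPM (median 74.3) against 14.4 to 25.2 CPM (median 21.7), 3.78-fold higher (log2 1.92, SE 0.13). Dtx4, a Deltex ubiquitin ligase of the Notch pathway, was 31.7 to 48.0 CPM (median 39.5) against 8.77 to 11.6 CPM (median 10.5), 3.85-fold higher (log2 1.94, SE 0.08). Nfasc (neurofascin, an adhesion molecule), Asxl3, Glipr2, Tdrd5 and Micalcl completed the list of 10 with differences of 3.26-fold to 3.97-fold, all from levels under 16 CPM. These 8 genes kept their calls without the adrenal-bearing libraries.

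The largest falls at ZT0 after the clock genes were those of BC018473 (5.62-fold), Cyp2a5 (5.18-fold), Nat8f5 (4.76-fold), Creb3l3 (4.50-fold), Zbtb16 (4.37-fold) and Hif3a (4.21-fold). Cyp2a5, a cytochrome P450 that oxidises coumarin, was 41.0 to 91.9 CPM at ZT0 (median 66.7) and 226 to 432 CPM at ZT12 (median 369; log2 -2.37, SE 0.16, adjusted p = 7.5e-08). Zbtb16, a zinc finger transcription factor (PLZF) induced by glucocorticoids, was 2.50 to 7.02 CPM (median 3.90) and 17.1 to 25.5 CPM (median 18.2; log2 -2.13, SE 0.17). Creb3l3, a membrane-bound transcription factor of lipid metabolism, was under 0.77 CPM at ZT0 and 0.821 to 3.03 CPM at ZT12. In the ZT set it varied widely between mice at ZT8 and ZT16, at 10.6 ± 16.5 and 16.4 ± 15.8 CPM (mean and SD). Its call was lost without the adrenal-bearing libraries (log2 -1.32, adjusted p = 0.0777). The other 5 genes kept theirs.

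**Figure D4:**
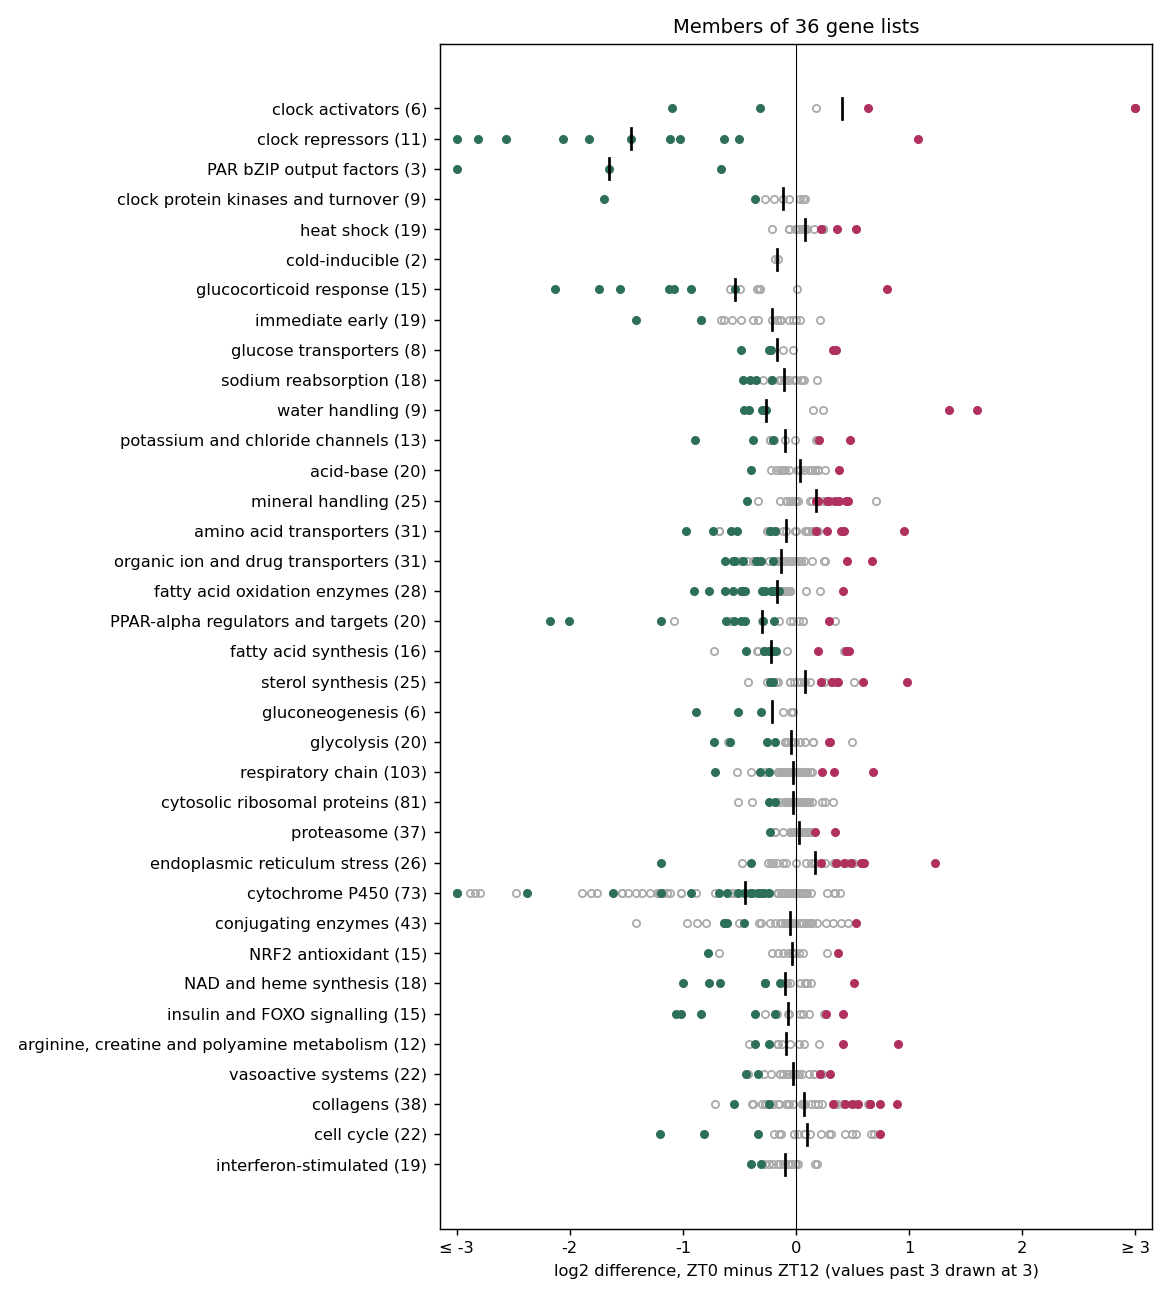
Log2 difference between ZT0 and ZT12 of every tested member of 36 gene lists, with the number tested in brackets, filled points for called members (red higher, green lower at ZT0), open points for the others and a bar at the median of each list. The clock repressors and PAR bZIP factors lie mostly left of 0, with medians of -1.46 and -1.66. The respiratory chain (-0.02), ribosomal protein (-0.03) and proteasome (0.03) lists centre near the all-gene median of -0.01. Metabolic medians run from -0.45 (cytochrome P450) and -0.30 (PPAR-alpha) through -0.17 (fatty acid oxidation) and -0.05 (glycolysis) to 0.08 (sterol synthesis).

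Over all genes 16.6% were called. That share was 12.5% in the CR set alone, 12.4% in the ZT set alone and 8.04% without the 4 libraries with adrenal transcripts. These shares are the background for each list below. Of 15 genes that glucocorticoid hormones are known to induce, 7 were lower at ZT0, 1 was higher and 7 were not called (53.3% called). Their median log2 difference was -0.54, against -0.01 over all genes. Fkbp5, a cochaperone of the glucocorticoid receptor, was 32.1 to 39.1 CPM at ZT0 (median 35.3) and 80.1 to 154 CPM at ZT12 (median 119), 3.35-fold lower (log2 -1.74, SE 0.13, adjusted p = 2.8e-07). Tsc22d3 (GILZ), a leucine zipper protein of the same response, was 38.1 to 55.6 CPM (median 41.1) and 108 to 162 CPM (median 124), 2.95-fold lower (log2 -1.56, SE 0.10). Klf15, a Krüppel-like factor, was 1.90-fold lower (log2 -0.93, SE 0.09), and Cdkn1a, the cell cycle inhibitor p21, was the member that was higher, 1.74-fold (log2 0.80, SE 0.12). Adrenal transcripts were present in 3 of the 7 ZT12 libraries, and their part in this result was not tested. In the CR set, which holds none, 10 members were lower and 1 higher, and without the 4 libraries 8 were lower and 1 higher. Of 19 immediate early genes, Ier3 (1.79-fold, without overlap) and Nr4a3 were lower at ZT0 and 17 were not called (10.5% called), whereas 9 were lower in the CR set alone and 1 in the ZT set. The call of Nr4a3 (log2 -1.41, SE 0.46, adjusted p = 0.0486) was lost in 11 of the 14 fits without 1 mouse.

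Of 28 enzymes of fatty acid oxidation, 13 were lower at ZT0, 1 was higher and 14 were not called. That is 50% called, beside 16.6% of all genes, with a median log2 difference of -0.17. Slc25a20, the carnitine-acylcarnitine carrier of the inner mitochondrial membrane, was 51.2 to 68.5 CPM at ZT0 (median 61.0) and 81.0 to 120 CPM at ZT12 (median 102; log2 -0.77, SE 0.08, adjusted p = 7.0e-06). Cpt2, which reforms acyl-CoA inside the mitochondrion, was 118 to 153 CPM (median 129) and 172 to 212 CPM (median 181; log2 -0.48, SE 0.05). Eci2 (log2 -0.49) and Decr2 (log2 -0.63), which act on unsaturated acyl chains, fell without overlap. The exception was Acsl1, an acyl-CoA synthetase at the entry of the pathway, which was 1.33-fold higher at ZT0 (log2 0.41, SE 0.08, adjusted p = 0.00199). In the CR set 13 members were lower and none higher, in the ZT set 8 were lower and 1 higher, and without the adrenal-bearing libraries 8 were lower and 1 higher.

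The list of PPAR-alpha, the nuclear receptor that drives fatty acid oxidation, had 9 of 20 members lower and 1 higher (50% called). Ppara itself was 89.0 to 128 CPM at ZT0 (median 101) and 124 to 182 CPM at ZT12 (median 153), with a narrow overlap (log2 -0.55, SE 0.09, adjusted p = 6.3e-04). Without the 4 libraries, Ppara was the 1 member still called (log2 -0.56, adjusted p = 0.0137), and 2 members were lower in the CR set alone and 9 in the ZT set. The 3 ZT12 libraries left out also held the highest adipocyte sums of that time point (506, 492 and 321 CPM), and the part of adipocyte transcripts in the result was not tested.

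Other metabolic lists split. All 3 called gluconeogenesis genes of 6 tested (50% called) were lower at ZT0. Pck1, the PEP carboxykinase that commits carbon to glucose, was 2692 to 4978 CPM at ZT0 (median 3286) and 4803 to 7845 CPM at ZT12 (median 6224), 1.84-fold lower with a narrow overlap (log2 -0.88, SE 0.13, adjusted p = 2.1e-04). Slc37a4, the glucose-6-phosphate carrier, was 1.43-fold lower and Pcx, pyruvate carboxylase, 1.24-fold lower. Of 20 glycolysis genes, 2 were higher (Ldha 1.22-fold, Pfkp 1.24-fold) and 4 lower, led by Pfkfb3 (1.65-fold), 30% called beside 16.6% of all genes. Without the adrenal-bearing libraries 1 was higher and 1 lower, Pfkp having lost its call (adjusted p = 0.0668). Sterol synthesis had 6 of 25 genes higher and 2 lower (32% called), and 4 higher and none lower without those libraries. Srebf2, the transcription factor of the pathway, was 1.24-fold higher without overlap (115.9 to 137.1 against 88.2 to 115.5 CPM). Fatty acid synthesis had 3 of 16 higher (Fads1 1.36-fold, Scd2 1.38-fold) and 6 lower (Mlxipl 1.21-fold), 56.2% called. Without those libraries 2 were higher and 1 lower, Mlxipl not among them (adjusted p = 0.182).

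Enzymes of NAD and heme synthesis were lower at ZT0 for 6 of 18 members and higher for 1 (38.9% called, and 5 and 1 without the adrenal-bearing libraries). Nampt, the rate-limiting enzyme of NAD salvage and a known clock target, was 135 to 199 CPM at ZT0 (median 161) and 278 to 371 CPM at ZT12 (median 325), 1.99-fold lower (log2 -0.99, SE 0.06, adjusted p = 3.5e-08). Alas1, the first enzyme of heme synthesis, was 1.71-fold lower (log2 -0.77, SE 0.10), and Por, which feeds electrons to the P450 enzymes, 1.60-fold lower (log2 -0.68, SE 0.08). Nmnat3, an NMN adenylyltransferase of NAD synthesis, was the exception, 1.43-fold higher. Of 73 cytochrome P450 genes tested, none was called higher and 16 were lower (21.9% called, beside 16.6% of all genes), with a median log2 difference of -0.45. After Cyp2a5, the smallest p belonged to Cyp4a32 (3.07-fold lower) and Cyp2e1, which oxidises ethanol and small solvents (47.9 to 95.0 CPM, median 65.2, against 113 to 212 CPM, median 135; log2 -1.19, SE 0.14). In the ZT set Cyp2e1 varied widely between mice at ZT8 and ZT16, at 272 ± 258 and 386 ± 237 CPM (mean and SD). The list holds 4 of the adrenal cortex markers, none of them called. Without the 4 libraries with adrenal transcripts, 55 P450 genes reached 100 counts, 6 of them lower and 1 higher. The count and median over 73 genes thus rest partly on genes that passed the filter only with those libraries. Ephx1, the microsomal epoxide hydrolase, was 1.71-fold lower without overlap. The Cyp2a, Cyp2d and Cyp4a genes have close copies, so reads could be split among them.

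Insulin and FOXO signalling genes were lower for 5 of 15 and higher for 2 (46.7% called, and 3 and 2 without the adrenal-bearing libraries). Foxo3, a transcription factor that insulin holds out of the nucleus, was 20.9 to 38.2 CPM at ZT0 (median 23.4) and 40.6 to 66.8 CPM at ZT12 (median 51.4; log2 -1.02, SE 0.10, adjusted p = 3.8e-06). Irs2, the insulin receptor substrate, was 2.09-fold lower with overlap, and Sesn3 was 1.34-fold higher. In arginine, creatine and polyamine metabolism, 2 of 12 genes were higher and 2 lower (33.3% called, and 2 and none without those libraries). Gatm, the first enzyme of creatine synthesis, was 1.87-fold higher at ZT0 without overlap (1212 to 1953 CPM, median 1401, against 469 to 1017 CPM, median 769).

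Genes of tubular transport were called in either direction. Of 18 sodium reabsorption genes, 4 were lower at ZT0 and none higher (22.2% called, beside 16.6% of all genes), the same counts as without the adrenal-bearing libraries and in either set alone. Atp1b1, the beta subunit of the sodium pump, was 1993 to 2667 CPM at ZT0 (median 2359) and 2902 to 3621 CPM at ZT12 (median 3151), 1.38-fold lower (log2 -0.47, SE 0.06, adjusted p = 2.6e-05). Slc9a3, the proximal sodium-proton exchanger NHE3, was 1.33-fold lower (log2 -0.41, SE 0.10). The call of Scnn1a, a subunit of the epithelial sodium channel (log2 -0.21, adjusted p = 0.0349), was lost in 11 of the 14 fits without 1 mouse and without the adrenal-bearing libraries (adjusted p = 0.263). In water handling, 5 of 9 genes were lower and 2 higher (77.8% called, and 3 and 2 without those libraries). Avpr1a, the V1a vasopressin receptor, was 20.2 to 27.3 CPM at ZT0 (median 22.0) and 6.29 to 8.71 CPM at ZT12 (median 7.46), 3.03-fold higher (log2 1.60, SE 0.08, adjusted p = 1.4e-09). Aqp8 was also higher, from low levels (2.55-fold), whereas Aqp1, the water channel of the proximal tubule and descending limb, was 1.22-fold lower without overlap, and Aqp6, of intercalated cells, 1.37-fold lower.

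Among 31 amino acid transporters 5 were higher and 6 lower (35.5% called, and 2 and 5 without the adrenal-bearing libraries). Slc7a8 (LAT2), which carries neutral amino acids out of proximal cells, was 207 to 322 CPM at ZT0 (median 224) and 107 to 138 CPM at ZT12 (median 126), 1.94-fold higher (log2 0.95, SE 0.09, adjusted p = 2.5e-06). Its relative Slc7a5 (LAT1) went the other way, 1.66-fold lower, as did the proline transporter Slc6a20a (1.96-fold) and the taurine transporter Slc6a6 (1.49-fold). Of 31 organic ion transporters 2 were higher and 8 lower (32.3% called, and 2 and 5 without those libraries), the carnitine transporter Slc22a5 among the lower (log2 -0.63). Slc22a12, the urate reabsorber URAT1, was 777 to 1204 CPM at ZT0 (median 862) and 490 to 673 CPM at ZT12 (median 556), 1.59-fold higher (log2 0.67, SE 0.09). Slc2a9, which passes urate across the basolateral membrane, was 1.40-fold lower and lost its call without the adrenal-bearing libraries (adjusted p = 0.059). Of 25 mineral handling genes, 8 were higher, 1 was lower and 16 were not called (36% called). They were led by the claudin Cldn10, at 237 to 286 against 175 to 213 CPM (log2 0.46, SE 0.04, adjusted p = 1.0e-06). Without the adrenal-bearing libraries, however, 1 was higher and 1 lower, and 5 were higher in the CR set and 3 in the ZT set. Of 8 glucose transporters 2 were higher (Slc5a2, the SGLT2 transporter, 1.28-fold, and Slc2a2 1.26-fold) and 3 lower (62.5% called), and no member was called without those libraries. Among potassium and chloride channels 2 of 13 were higher and 3 lower (38.5% called, and 1 and 2 without those libraries). Kcnk5, a pore of proximal cells, was 1.86-fold lower and Kcne1 1.39-fold higher. Acid-base genes had 1 of 20 higher (Car12, a carbonic anhydrase, 1.30-fold) and 1 lower (Slc38a3, a glutamine transporter, 1.31-fold), 10% called beside 16.6% of all genes. Both counts were the same without those libraries. In the CR set 1 was higher and 3 lower, and in the ZT set 2 were higher and none lower.

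Of 26 genes of protein folding and stress in the endoplasmic reticulum, 7 were higher at ZT0, 2 were lower and 17 were not called. That is 34.6% called, beside 16.6% of all genes, with a median log2 difference of 0.17. The sets differed in these counts, with 12 higher and 1 lower in the CR set and 5 higher and 4 lower in the ZT set, and 6 were higher and 1 lower without the adrenal-bearing libraries. Pdia6, a disulfide isomerase, was 203 to 325 CPM at ZT0 (median 217) and 149 to 162 CPM at ZT12 (median 155), 1.52-fold higher (log2 0.60, SE 0.08, adjusted p = 5.9e-05), Pdia3 was 1.34-fold higher, and Calr (calreticulin) 1.49-fold. Herpud1, a protein of endoplasmic reticulum-associated degradation, was lower: 147 to 322 CPM at ZT0 (median 203) and 347 to 572 CPM at ZT12 (median 515), 2.29-fold lower (log2 -1.20, SE 0.16). The cytosolic chaperone Hsp90aa1 was 1.45-fold higher at ZT0 with overlap, as 1 of 3 higher among 19 heat shock genes (15.8% called, beside 16.6% of all genes). In the ZT set alone no heat shock gene was higher and 1 was lower. Neither of the 2 cold-inducible genes was called.

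Of 38 collagen genes 8 were higher at ZT0, 2 were lower and 28 were not called (26.3% called, beside 16.6% of all genes). Among the higher were the adjoining genes Col4a1 (1.46-fold) and Col4a2 (1.57-fold), which encode chains of the type IV collagen of basement membranes, and Col18a1 (249 to 291 against 172 to 202 CPM; log2 0.50, SE 0.05, adjusted p = 3.7e-06). In the CR set 13 were higher and 2 lower, in the ZT set 5 and 2, and without the adrenal-bearing libraries 7 and 2. The summed podocyte markers were lowest in the 3 adrenal-bearing ZT12 libraries, replicates 2, 3 and 4, at 320, 364 and 351 CPM. Of 6 podocyte markers 3 were higher and none lower, beside 16.6% of all genes called. Of the other segments, proximal tubule had 1 higher and 2 lower of 7, thick ascending limb 1 and 1 of 4, and distal convoluted tubule 1 and none of 3. Principal cells had none and 2 of 4, and no intercalated marker was called. Among the higher podocyte markers, with overlapping groups, were Wt1, a transcription factor of these cells (median 10.1 against 7.09 CPM, log2 0.49), and Synpo, an actin-binding protein (70.0 to 95.6 against 49.4 to 72.2 CPM, log2 0.33). The call of Synpo was lost without the adrenal-bearing libraries (adjusted p = 0.0597). Among vasoactive genes 2 of 22 were higher (Agtr1a, the angiotensin receptor, 1.16-fold, and Adra1a) and 2 lower (18.2% called, beside 16.6% of all genes). Adra1a lost its call without the adrenal-bearing libraries (adjusted p = 0.0632). The call of Ace was lost in 10 of 14 fits without 1 mouse and that of Ednrb in 7 (adjusted p = 0.0437 and 0.0390 with all mice).

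Few respiratory chain, ribosome and proteasome genes were called, beside 16.6% of all genes. Of 103 respiratory chain genes 3 were higher and 3 lower (5.83%), of 81 cytosolic ribosomal protein genes none was higher and 2 lower (2.47%), and of 37 proteasome genes 2 were higher and 1 lower (8.11%). Without the adrenal-bearing libraries these counts were 3 and 1, none and none, and 1 and none. Of 43 conjugating enzymes 1 was higher (Sult1c2, 1.44-fold) and 3 lower (Gstt2 1.53-fold; 9.3% called), and 4 and 2 without those libraries. Of 15 NRF2 antioxidant genes 1 was higher (Hmox1, 1.29-fold) and 1 lower (Ephx1, above; 13.3% called), Hmox1 losing its call without those libraries (adjusted p = 0.0528). Of 19 interferon-stimulated genes 2 were lower (Irf7 and Ifit3; 10.5% called), neither of which was called without those libraries. Among 22 cell cycle genes 1 was higher and 3 lower (18.2% called), and Wee1 alone kept its call without the adrenal-bearing libraries. Wee1, the kinase that holds cells before mitosis and a known E-box gene, was 17.5 to 24.8 CPM at ZT0 (median 19.2) and 39.6 to 52.7 CPM at ZT12 (median 45.1), 2.31-fold lower (log2 -1.21, SE 0.07, adjusted p = 8.5e-09).

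The CR and ZT sets are separate mice, and each was tested on its own. The CR set called 1799 of 14439 genes (12.5%) and the ZT set 1836 of 14784 (12.4%). They shared 645 genes called in the same direction, 35.9% of the CR calls and 35.1% of the ZT calls, and 15 called in opposite directions. Of the ZT set calls tested in the CR set, 1435 of 1755 (81.8%) had the same direction, a share that was not counted over all genes. The difference between sets was called for 62 of 15504 genes (0.4%), and for 2923 at an unadjusted p under 0.05. That count moved between 0 (without replicate 7 of ZT12) and 375 (without replicate 1 of ZT12) when single mice were left out, and 12 of the 62 were among the genes called between time points.

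A further check came from 16 young mice of the ZT set that were in neither the ZT0 nor the ZT12 group, 4 each at ZT4, ZT8, ZT16 and ZT20. The mean of ZT20 and ZT4, the points around lights on, was set against the mean of ZT8 and ZT16, the points around lights off. Of 15504 genes, 834 were called (5.38%), 441 higher around lights on (2.84%) and 393 lower (2.53%). Of the 2579 genes called between ZT0 and ZT12, 2175 (84.3%) had the same direction there, 507 were called in the same direction (19.7% of the 2579 and 60.8% of the 834) and 3 in the opposite one. Adrenal cortex markers passed 50 CPM in 4 of these 16 libraries, at 1788, 67.2 and 1605 CPM in replicates 1, 3 and 4 of ZT16 and 637 CPM in replicate 3 of ZT20, and without them 271 genes were called in the same direction. Of the 1176 genes higher at ZT0, 588 (50.0%) had their highest mean of these 4 points at ZT4 and 393 (33.4%) at ZT20. The rest of the higher genes were highest at ZT8 (98, 8.33%) or ZT16 (97, 8.25%). Of the 1403 lower genes, 592 (42.2%) were highest at ZT8, 501 (35.7%) at ZT16, 250 (17.8%) at ZT20 and 60 (4.28%) at ZT4. Shared directions and highest points were not counted over all genes, so these shares have no background beside them.

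The 6 time points of the ZT set show that genes with like differences at ZT0 and ZT12 followed different courses. Npas2 and Arntl were lowest at ZT8, at 0.963 ± 0.085 and 1.10 ± 0.013 CPM (SD, n = 4), and highest at ZT20. Dbp peaked at ZT8, at 209 ± 10.8 CPM, and had fallen to 92.2 ± 23.1 CPM at ZT12, so ZT12 lay on its falling side, whereas Per2 was highest at ZT12 itself (105 ± 7.15 CPM) with 55.0 ± 5.32 CPM at ZT8. Nfil3, higher at ZT0 than at ZT12, did not differ between the flanking points (log2 0.11, SE 0.14, adjusted p = 0.704): it stood at 7.29 ± 1.04 CPM at ZT4 and 41.2 ± 6.12 CPM at ZT16. Zbtb16, at 17.1 CPM or more in every mouse at ZT12, averaged between 1.28 and 4.79 CPM at the other 5 points.

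**Figure D5:**
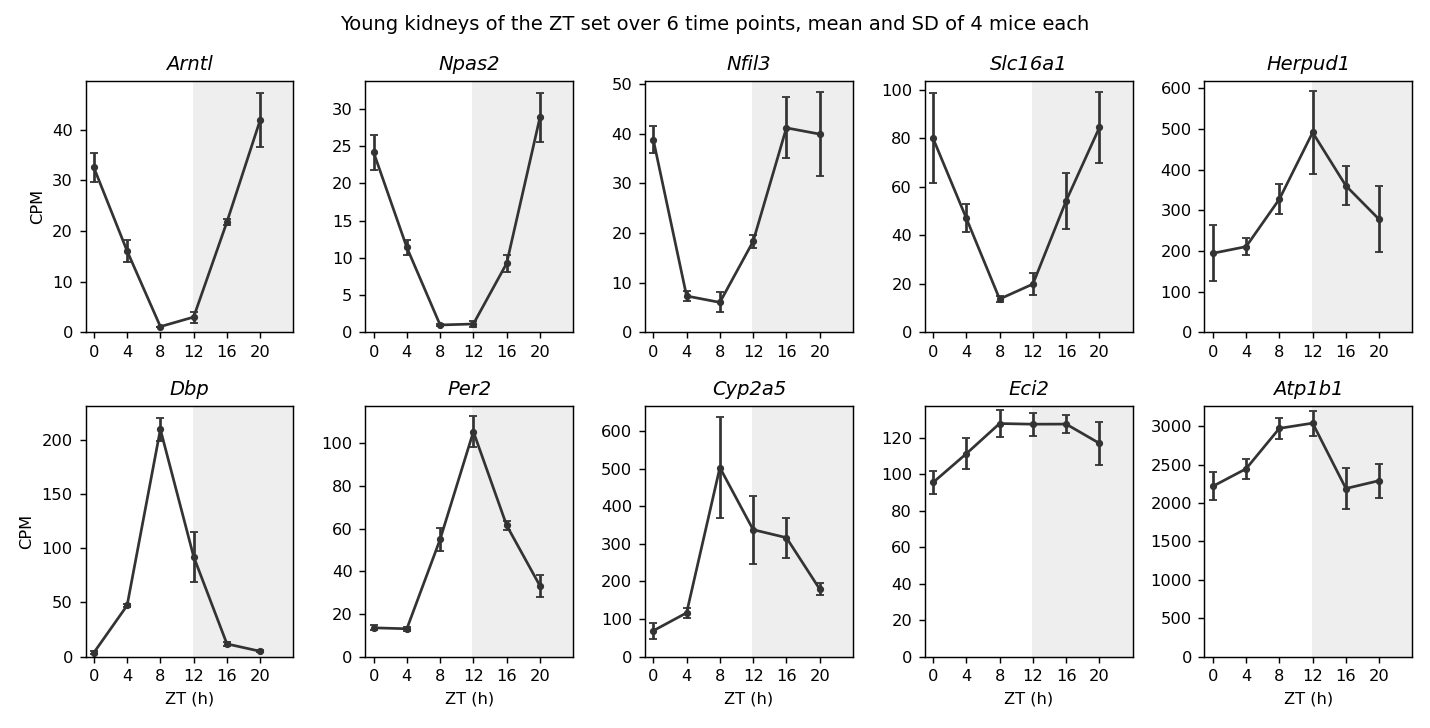
Mean CPM and SD of 4 young mice of the ZT set at each of 6 time points (hours after lights on) for 10 genes, with the dark period in grey. Arntl, Npas2 and Slc16a1 are low at ZT8 and ZT12, Dbp and Cyp2a5 are highest at ZT8, Per2 and Herpud1 at ZT12, and Eci2 and Atp1b1 vary over a smaller range.

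Nephritic mice of the same strain, aged 30 to 45 weeks, served to show where the difference of the young kidney was not shared. Age and disease cannot be told apart in this comparison. The set of the nephritic mice was inferred: libraries titled CRS (3 at ZT0) or HIL (2 at ZT12) were placed with the CR set and those titled RX with the ZT set, which no label states. Without the set as a covariate 21 genes were also called, 17 of them among the 21 given next. With 14 young and 13 nephritic mice (7 at ZT0, 6 at ZT12) the difference between time points itself differed for 21 of 16684 genes (0.126%), and for 1904 at an unadjusted p under 0.05. All 21 were called in young mice, whose 14 libraries enter both tests, and for 19 the young difference was the larger. Among the 21 was the adrenal medulla marker Pnmt (log2 -7.20 in young and 8.71 in nephritic mice). Adrenal cortex markers passed 50 CPM in 5 of these 27 libraries. Npas2 was 15.6 to 25.7 CPM at ZT0 and 3.67 to 9.36 CPM at ZT12 in nephritic mice, a log2 difference of 1.79 against 4.66 in young mice (disease by time log2 -2.88, SE 0.27, adjusted p = 1.2e-06). For Arntl the nephritic values were 18.2 to 33.4 and 6.38 to 15.4 CPM (disease by time log2 -2.34, SE 0.28, adjusted p = 7.4e-05). For Dbp they were 4.07 to 10.1 and 8.90 to 34.7 CPM, which overlap (disease by time log2 2.98, SE 0.36, adjusted p = 7.4e-05). These 3 were the genes still called without the 5 libraries with adrenal transcripts. Ciart, Dtx4 and Micalcl, also among the 21, were not. Per2, Per3 and Nr1d2 did not pass (adjusted p = 0.449, 0.0663 and 0.157), which does not show that they behaved alike in the 2 groups.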

How the data were processed

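Kidney RNASeq libraries were deposited as 1 table of raw read counts per gene symbol each. The authors aligned reads to mm10 and counted uniquely aligned reads with at most 2 mismatches. The study's methods name Burrows-Wheeler alignment and the submitters' processing notes HISAT, without a version. Groups came from the labels. Sets of young mice came from the title prefix (CR or ZT), while nephritic titles (CRS, HIL, RX) carry no such statement and their set was inferred. Of 24538 symbols, 15 with empty cells were left out. Genes with at least 100 counts over the libraries of a fit were tested with edgeR 4.0.16 (R 4.3.3; TMM scaling, quasi-likelihood test, set as covariate, two-sided), and p-values were adjusted by Benjamini-Hochberg over all genes tested. CPM values are shown per library. Alternatives were DESeq2 1.42.0, limma 3.58.1 (voom), other scaling, filters and samples, and leaving out each mouse. The fits were tested on simulated data. No pair of libraries of a group agreed within sampling noise. Named genes were the 10 largest differences per direction (no overlap, mean of at least 1 CPM), all clock genes, and per list up to 4 called members by smallest p plus the one with the smallest p in the rarer direction. Podocyte, adrenal and adipocyte markers were named after their values were seen. Members and lists were chosen with earlier results of these data known. Omission of the libraries with over 100 CPM of adrenal cortex markers (over 50 CPM in the flanking and nephritic comparisons), and the nephritic fit without the set, were chosen after seeing the data. Gene coordinates and promoters are from RefSeq, GRCm38.p6. Values of some genes are not reported here.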

Additional observations from a re-analysis of the deposited data

Results flagged for a closer look

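The difference between ZT0 and ZT12 differed between young and nephritic mice, by a test of the difference itself (edgeR's quasi-likelihood test, nephritic minus young), for Npas2 (log2 -2.88, adjusted p = 1.2e-06), Arntl (log2 -2.34, adjusted p = 7.4e-05), Dbp (log2 2.98, adjusted p = 7.4e-05), Ciart (log2 2.43, adjusted p = 0.00879), Micalcl (log2 -1.36, adjusted p = 0.00879) and Dtx4 (log2 -1.36, adjusted p = 0.0138). Between the CR and ZT sets it differed for Calr (log2 -0.67, adjusted p = 0.0145) and BC018473 (log2 -1.28, adjusted p = 0.0456).

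Single mice stood far from the other 6 of their group in 31 of 316 groups tested by Dixon's criterion (9.81%), which by chance marks about 1 in 20. At ZT0, replicate 4 stood apart for Atp2b4 (64.0 CPM), Car12 (586 CPM), Csnk1e (13.6 CPM), Gatm (1953 CPM), Kcnj15 (756 CPM), Ldha (594 CPM), Slc2a9 (27.6 CPM) and Slc37a4 (292 CPM). Replicate 7 did so for Asxl3 (3.54 CPM), Cox6a2 (2.97 CPM), Micalcl (5.22 CPM), Nr1d2 (46.9 CPM) and Slc2a5 (98.2 CPM), and replicate 5 for BC018473 (26.1 CPM), Nmnat3 (11.9 CPM) and Slc6a20a (31.1 CPM). Replicate 1 stood apart for the summed adrenal cortex (411 CPM) and medulla markers (7.93 CPM), replicate 3 for Cox11 (22.3 CPM) and replicate 6 for Alas1 (210 CPM).

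At ZT12, replicate 4 stood apart for Cyp4a32 (4.72 CPM), Glipr2 (1.19 CPM), Por (451 CPM) and Slc38a3 (42.6 CPM), replicate 1 for Bhlhe40 (131 CPM), Herpud1 (347 CPM) and Slc37a4 (246 CPM), replicate 5 for Acsl1 (611 CPM), Cpt2 (212 CPM) and Nmnat3 (6.86 CPM), and replicate 3 for Irf7 (24.0 CPM).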

How the results depend on the processing

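The count of 2579 genes lay between 1799 and 2957 under other scaling, tools, filters and sample sets, except that it was 1459 (686 higher, 773 lower) without the set covariate, 1389 (576 higher, 813 lower) with a minimum fold required as well, and 1207 (571 higher, 636 lower) without the 4 libraries with adrenal transcripts, an alternative chosen after seeing the data. Leaving out single mice gave 2067 to 2696 genes, 951 to 1348 higher and 1015 to 1439 lower. The count of genes differing between sets ran from 0 to 375. The flanking comparison called 508 (without replicate 2 of ZT4) to 1157 genes (without replicate 3 of ZT20), 373 to 616 of them as between ZT0 and ZT12, and 401 and 271 without 4 libraries with over 50 CPM of adrenal cortex markers. The young against nephritic difference was called for 6 genes in the ZT and RX titled libraries alone, 3 without 5 libraries over 50 CPM, and 21 without the set covariate. The causes were not tested. Of 148 named genes that were called, none changed direction in any setting run, 131 kept the call in all 14 fits without 1 mouse and 82 in every setting except the fold requirement. Apart from the clock genes, these were named for small p or large differences in these same libraries, so they do not stand for all called genes. Without the 4 libraries with adrenal transcripts 109 of the 148 kept the call, against 42.3% of all 2579. Replicate numbers were given in accession order. No paired analysis was possible because the labels carry no number shared between groups.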
